A study of Mus musculus with 21 samples.

Results

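Transcripts of 10 genes of the circadian clock were followed in the gastrocnemius muscle of 21 female C57BL/6NJ mice, with 1 library per mouse. The 10 genes, Clock, Per1, Per2, Per3, Cry1, Cry2, Nr1d1, Nr1d2, Dbp and Tef, were taken by symbol from the 40853 genes of the count table. The rule uses no measured value, but the list was drawn up with earlier results of these data known. All 10 were among the 16129 genes with enough counts to be tested. The mice were 10 weeks old when they were assigned to groups of 7. Inactive mice stayed in standard housing with enrichment and did not train. Active mice trained on a treadmill for 6 weeks, on 5 days per week. A session began with a 10-min warm-up and went on at about 70% of the maximal running speed for 15 min at first and 30 min after 3 weeks. Sessions took place 8 to 10 h after lights on. Activity Reduction mice trained in the same way for 4 weeks and were then inactive for 2 weeks. Every mouse, the Inactive mice included, ran a maximal running test 48 to 72 h before its tissue was taken, and each was fasted, for 5 to 6 h by the labels and 4 to 6 h by the methods of the study. The fast began with the light phase, which places its end about 4 to 6 h after lights on. The hour at which each mouse was sampled within this window is not given in the sources used here. Values are therefore compared between groups and then between mice of the same group.

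The circadian clock is a feedback loop of transcription that runs in nearly every cell. CLOCK and BMAL1 form a pair that binds E-box sequences and switches on the Per, Cry and Nr1d genes and the output genes Dbp and Tef. PER and CRY proteins in turn block the CLOCK and BMAL1 pair, and the NR1D receptors, also known as REV-ERBs, repress the gene for BMAL1. In skeletal muscle the clock is known to time genes of glucose and lipid metabolism, and its transcripts change level over the day. A bulk level from 1 hour of the day therefore reads both the strength of the rhythm and its phase, and the data hold 1 time point per mouse.

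Libraries held 38482455 to 59785132 counts on genes. The summed level of 10 markers of skeletal myofibres was between 180140 and 216170 CPM (counts scaled to a common library total) across the 21 libraries. Transcripts of 24 liver genes divided the libraries into 8 with a summed level of 798 to 2405 CPM and 13 with 168 to 371 CPM. Each of the 8 had a lower mouse number in the labels than any of the 13. The division can therefore not be told apart from the order of the mouse numbers, and what this order stands for was not tested. The 8 were 1 Inactive, 5 Active and 2 Activity Reduction mice, so values with this division in the model are given beside the comparisons that involve the Active group. Fewer cells of a type and less RNA per cell cannot be told apart in bulk tissue.

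Promoters are shown for members whose transcripts varied together between mice, as described further on, and were taken from those with a matched element. Clock varied with these members too, but its promoters held no match and are not printed. RefSeq gave 13 promoters for 9 of the 10 members, all but Per2, each read as the 250 bases before the start in GRCm38.p6. Per1 (chr11:69098699-69098948, plus strand), Per3 (chr4:151044666-151044915, minus strand), Nr1d1 (chr11:98775378-98775627, minus strand) and Tef (chr15:81802423-81802672, plus strand) are printed, with matched elements in capitals.
Per1: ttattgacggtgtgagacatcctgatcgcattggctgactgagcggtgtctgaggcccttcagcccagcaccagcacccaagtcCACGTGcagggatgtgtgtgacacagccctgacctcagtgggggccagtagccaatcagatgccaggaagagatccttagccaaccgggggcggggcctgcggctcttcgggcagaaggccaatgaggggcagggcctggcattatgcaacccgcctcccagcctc
Per3: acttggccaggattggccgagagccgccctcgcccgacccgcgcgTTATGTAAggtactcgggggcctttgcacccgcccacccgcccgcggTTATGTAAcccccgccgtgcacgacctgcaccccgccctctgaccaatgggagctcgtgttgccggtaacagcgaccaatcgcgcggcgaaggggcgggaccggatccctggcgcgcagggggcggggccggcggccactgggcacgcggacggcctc
Nr1d1: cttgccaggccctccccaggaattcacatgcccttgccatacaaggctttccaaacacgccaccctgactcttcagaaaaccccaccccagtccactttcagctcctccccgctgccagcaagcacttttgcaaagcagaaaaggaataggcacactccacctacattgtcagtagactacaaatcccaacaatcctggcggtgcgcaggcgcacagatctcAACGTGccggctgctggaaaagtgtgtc
Tef: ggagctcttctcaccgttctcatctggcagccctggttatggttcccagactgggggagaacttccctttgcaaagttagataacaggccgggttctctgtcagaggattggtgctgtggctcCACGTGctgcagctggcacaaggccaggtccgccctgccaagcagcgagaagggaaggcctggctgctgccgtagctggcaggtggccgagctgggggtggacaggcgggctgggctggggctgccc
The E-box CACGTG, which reads the same on both strands, was found in promoters of Per1, Cry1 and Tef, and 6.02% of the 32851 RefSeq promoters held it. In Per1 it lay 166 to 161 bases before the start, and the promoters of Tef held it 127 to 122 and 138 to 133 bases before theirs. A variant E-box, CACGTT or AACGTG by strand, was found in Cry1, Cry2 and Nr1d1 and in 3.85% of all promoters. In Nr1d1 it lay 28 to 23 bases before the start. The D-box, the element of the DBP and TEF proteins themselves, was searched as TTATGTAA or TTACGTAA on both strands and was found in 0.931% of promoters. Per3 was the member with D-boxes and held a pair of them, 205 to 198 and 158 to 151 bases before the start. The element of the ROR and NR1D receptors, TAGGTCA or TGGGTCA on both strands, was in 5.38% of promoters and in none of the 13. No match was found in the promoters of Clock, Nr1d2 and Dbp or in the other promoter of Per1. A match says that these letters are in the window and is no measurement of binding.

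Per length of exon, the output genes were the most abundant members. The median FPKM (counts scaled to exon length and library total, computed from the counts and GENCODE exon lengths) was 47.4 for Tef and 29.8 for Dbp. The NR1D receptors followed with 23.4 for Nr1d1 and 17.96 for Nr1d2. The PER genes were at 11.3 for Per1, 6.59 for Per3 and 3.50 for Per2, and the CRY genes at 5.91 for Cry2 and 2.62 for Cry1. Clock was lowest with 1.44. The length used joins all annotated exons of a gene, 17251 bases for Clock and 4978 for Cry1, so the order depends on it. In counts, Clock (956 to 1767) was above Cry1 (447 to 793). Over the 21 mice the range of Nr1d1 (12.99 to 36.9) overlapped those of Dbp (20.1 to 39.4) and Nr1d2 (15.6 to 19.5). The ranges of Per1 (4.74 to 16.3), Per3 (5.74 to 8.31) and Cry2 (5.29 to 7.65) overlapped too, as did those of Per2 (2.03 to 4.74) and Cry1 (2.12 to 3.10), so the order of these neighbours is not fixed mouse by mouse. Tef (42.1 to 52.1) was above the range of every other member.

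Normalized counts, which are counts divided by the size factor of the library, are used from here for each gene across mice. Clock (GRCm39, chr5:76342860-76452846), the partner of BMAL1, ranged from 1038 to 1447 in the Inactive group (median 1242), from 933 to 1291 in the Active group (1183) and from 1118 to 1389 in the Activity Reduction group (1189). The 3 ranges overlapped over most of their width. Antisense to Clock, exons of Tmem165 cover 11.9% of its exon bases.

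Per1 (chr11:68986035-69002300), a repressor of the loop that also responds quickly to stress hormones, had the widest relative spread of the members in the Inactive group. It ranged from 1778 to 6124 in the Inactive group (median 3882), from 3485 to 5514 in the Active group (4221) and from 2935 to 5955 in the Activity Reduction group (5525). The groups overlapped, with the lowest and the highest of all 21 values both in the Inactive group. Per2 (chr1:91343700-91387069), which acts with Per1, ranged from 653 to 1502 in the Inactive group (median 1081), from 946 to 1492 in the Active group (1131) and from 846 to 1361.5 in the Activity Reduction group (1263). Its extremes fell on the same mice as those of Per1, replicate 2 and replicate 7 of the Inactive group. Per3 (chr4:151081373-151129140), which is largely dispensable for rhythm, varied less, from 2946 to 3827 (median 3394), 3246 to 4183 (3446) and 3119 to 4086 (3545) in the same order of groups.

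Cry1 (chr10:84967560-85021252), the stronger of the CRY repressors, was the member with the lowest counts. It ranged from 617 to 743 (median 639) in Inactive, 528 to 700.4 (649) in Active and 544 to 746 (620.2) in Activity Reduction mice, with no separation between groups. Cry2 (chr2:92233894-92264474), which shares its role, ranged from 2224 to 2830.4 (median 2442) in Inactive, 2410.0 to 2745.5 (2472) in Active and 2441 to 3168 (2699) in Activity Reduction mice. Replicates 1 and 2 of the Activity Reduction group held the highest Cry2 values of all 21 mice, 3168 and 3028, and the other 5 lay within the range of the Inactive group.

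Nr1d1 (chr11:98658752-98666188), the NR1D receptor that represses the gene for BMAL1, ranged from 2069 to 5864 in the Inactive group (median 4472), from 2618 to 4457 in the Active group (3627) and from 2223 to 5637 in the Activity Reduction group (3566). The Active values lay inside the range of both other groups. Exons of Thra, a thyroid hormone receptor gene on the opposite strand, cover 52.3% of the exon bases of Nr1d1, and the strand setting of the authors' counting is not given in the sources used here, so the level of Nr1d1 is uncertain to that extent. Nr1d2 (chr14:4230545-4266624), its partner receptor, was among the steadiest members, from 7416 to 8286 (median 8157), 7529.5 to 8518 (7975) and 7218 to 8619 (8161) in Inactive, Active and Activity Reduction mice.

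Dbp (chr7:45354512-45359627), an output gene and known for a large daily swing in many tissues, ranged from 3434 to 6557 in the Inactive group (median 4635), from 4284 to 5602 in the Active group (5021) and from 4524 to 6101 in the Activity Reduction group (5583). The Inactive range enclosed both others. Sphk2 on the opposite strand covers 15.5% of its exon bases. Tef (chr15:81686622-81711064), a factor that binds the same D-box as Dbp, ranged from 17027 to 19977 (median 19416), 18563 to 20361 (19295) and 18772 to 21261 (20622) in the same order. Tef differed little between mice in every group, and 4 of the 7 Activity Reduction values were above the highest Inactive value.

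**Figure D1:**
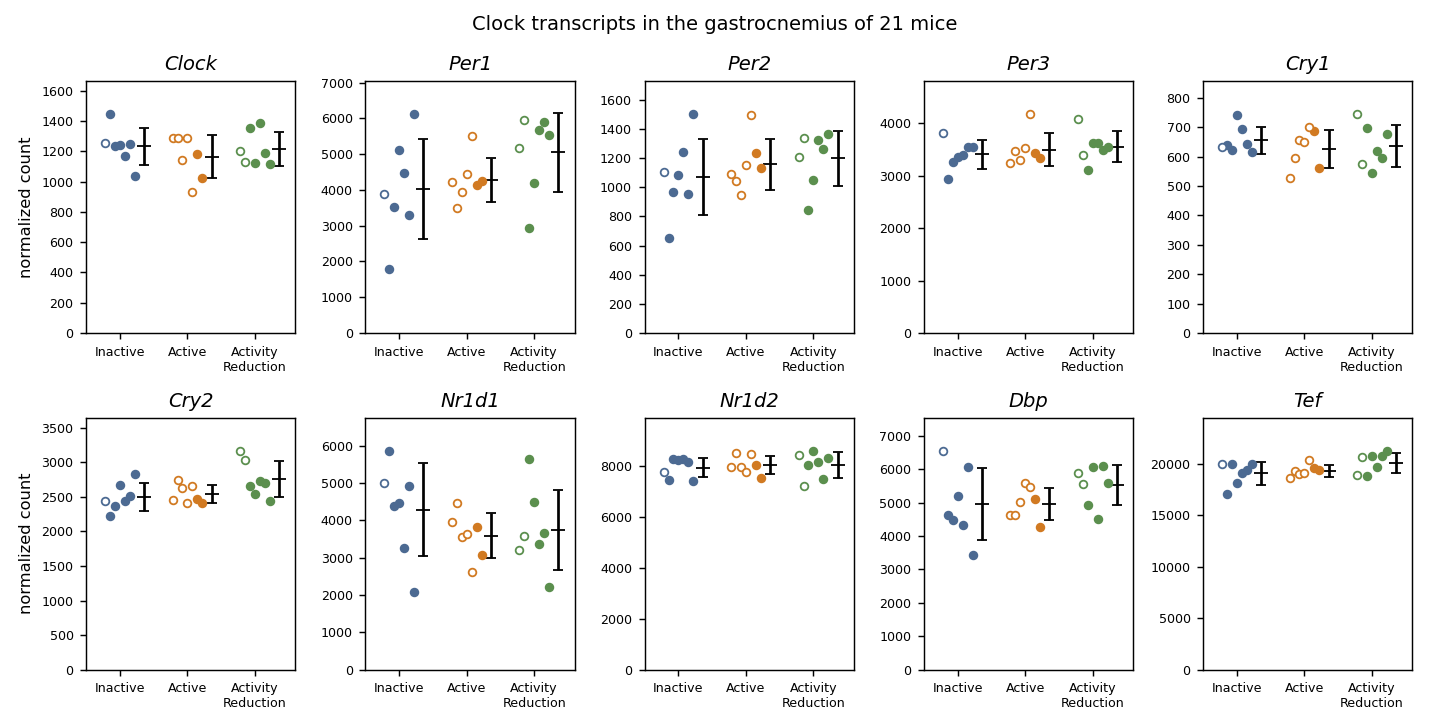
Normalized counts (vertical axes, from 0) of the 10 clock transcripts in Inactive, Active and Activity Reduction mice, 1 point per mouse and 7 per group, in order of replicate number. Open points are the 8 libraries with more liver transcripts, and black bars are the mean ± SD of each group. The groups overlap for each gene, and Per1, Per2, Nr1d1 and Dbp spread most widely in the Inactive group.

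The spread within groups set the members apart from each other more than the groups did. The coefficient of variation of Per1 was 34.6% among Inactive, 14.5% among Active and 21.9% among Activity Reduction mice. Nr1d1 had 29.2%, 16.7% and 28.8%, and Per2 had 24.6%, 15.01% and 15.7%. Dbp had 21.6%, 9.57% and 10.8%. All 4 had their highest coefficient of variation in the Inactive group and their lowest in the Active group, a difference in spread that was not tested. Tef stayed between 2.91% and 5.84% and Nr1d2 between 4.46% and 6.36%. Among 7695 genes with a mean log2 CPM of at least 3, the SD within groups of Per1 stood at percentile 98.0, of Nr1d1 at 97.8, of Per2 at 95.9 and of Dbp at 91.97, against 16.8 for Nr1d2 and 10.8 for Tef.

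Whether 6 weeks of training moved the clock was asked in the comparison of Active with Inactive mice. Of the 10 members, 0 had an adjusted p under 0.05 and 0 had an unadjusted p under 0.05 in the quasi-likelihood test of edgeR, with p-values adjusted by Benjamini and Hochberg's method. Over all 16129 genes tested the shares were 0% and 10.9%. The largest difference was that of Nr1d1, 0.25 lower on the log2 scale (log2 fold change -0.25 ± 0.19 SE, edgeR adjusted p = 0.661), with a 95% interval from -0.64 to 0.14. Per2 was 0.12 ± 0.14 (SE) and Per1 0.10 ± 0.19 (SE) on the log2 scale. For the steady members the intervals were narrow, from -0.06 to 0.11 for Nr1d2, -0.06 to 0.11 for Tef and -0.08 to 0.17 for Per3. The median log2 fold change of the 10 members was 0.02. The groups overlapped for all 10 genes, and 0.254% of all genes tested had groups that did not overlap. Single Inactive mice moved these estimates in both directions. Without replicate 7, the mouse with the lowest Nr1d1, the difference of Nr1d1 was -0.37 ± 0.16 (SE), with an edgeR adjusted p of 0.404 and an unadjusted p under 0.05, and without replicate 2, the mouse with the highest, it was -0.16 (adjusted p = 0.821). Without the same replicates 7 and 2, Per2 was at 0.22 and 0.02 and Per1 at 0.23 and -0.04. Without replicate 5 of the Active group they were at 0.04 and 0.02. With the liver division in the model, Nr1d1 was at -0.26, Per2 at 0.09 and Per1 at 0.04, with 0 of the 10 members and 8.51% of all genes under the unadjusted limit. Per3, Cry2 and Dbp went from 0.04, 0.03 and 0.01 to -0.02, -0.04 and -0.10. Within the libraries with fewer liver transcripts, 6 Inactive and 2 Active mice, Nr1d1 differed by -0.26 ± 0.32 (SE).

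Activity Reduction mice differed from Inactive mice in 1 of the 10 members at an unadjusted p under 0.05 and in 0 after adjustment (edgeR). All genes tested passed these limits in 7.73% and 0.0124% of cases. The member was Cry2, which was 0.14 ± 0.058 (SE) higher on the log2 scale (95% interval 0.02 to 0.27, edgeR adjusted p = 0.552). Normalized counts of Cry2 averaged 2497 ± 200.4 (SD) in the 7 Inactive mice and 2751 ± 259.7 (SD) in the 7 Activity Reduction mice. The difference rested in part on single mice. Without replicate 1 of the Activity Reduction group it was 0.10 (edgeR adjusted p = 0.687), without replicate 2 of that group 0.12 (adjusted p = 0.706), and without the Inactive replicate 2 it was 0.11 (adjusted p = 0.788). None of these 3 fits passed the unadjusted limit for Cry2. Replicates 1 and 2 of the Activity Reduction group are also its libraries with more liver transcripts, at 1681 and 1438 CPM. Within the libraries with fewer liver transcripts, 6 Inactive and 5 Activity Reduction mice in this comparison, Cry2 differed by 0.06 ± 0.058 (SE). Its adjusted p in that fit was 0.873 in edgeR, and 0 of the 10 members and 7.89% of all genes were under the unadjusted limit. That fit leaves out replicates 1 and 2, the highest in Cry2, so it cannot tell the liver division from these mice. The fit of all mice with the division in the model is not given for Cry2 in this comparison.

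The repressor Per1 had the largest estimate in this comparison, 0.33 ± 0.19 (SE) on the log2 scale, from a mean of 4027 ± 1392 (SD) to 5053.5 ± 1109 (SD) normalized counts. Its interval ran from -0.06 to 0.73 (edgeR adjusted p = 0.729). It passed the unadjusted limit without replicate 7 of the Inactive group, its highest mouse (log2 fold change 0.46, edgeR adjusted p = 0.514), and without replicate 3 of the Activity Reduction group, its lowest (0.42, adjusted p = 0.489). Without replicate 2 of the Inactive group, the lowest of that group, it was 0.20 (adjusted p = 0.893). Per2 was 0.17 ± 0.14 (SE), and 0.07 and 0.26 without replicates 2 and 7 of the Inactive group. Tef was 0.08 ± 0.039 (SE) higher (edgeR adjusted p = 0.657). Leaving out any of 5 libraries took Tef under the unadjusted limit, Inactive replicates 1, 3 and 7 and Activity Reduction replicates 1 and 3. Dbp was 0.16 ± 0.11 (SE) higher and passed that limit (log2 fold change 0.24, edgeR adjusted p = 0.547) when replicate 1 of the Inactive group, its highest mouse, was left out, while without replicate 7 of that group it was 0.08 (adjusted p = 0.913). Nr1d1 differed by -0.19 ± 0.19 (SE) and ranged from -0.33 without replicate 3 to -0.11 without replicate 7 of the Activity Reduction group, and Clock, Cry1, Nr1d2 and Per3 by values between -0.04 and 0.06. The median of the members was 0.07. The groups overlapped for all 10 members, against 0.118% of all genes that did not overlap.

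Stopping training was compared with continuing it in the Activity Reduction and Active groups. Here 0 of the 10 members had an adjusted p under 0.05 and 0 an unadjusted p under 0.05 (edgeR), beside 0% and 13.3% of all genes tested. Of the 10 estimates 9 were above 0, with a median of 0.06 on the log2 scale, and the largest was Per1 at 0.24 ± 0.19 (SE). Cry2 was 0.11 ± 0.058 (SE) higher (95% interval -0.01 to 0.23, edgeR adjusted p = 0.416), and Dbp 0.15 ± 0.11 (SE) higher. With the liver division in the model, the estimates for Cry2 and Dbp were 0.16 ± 0.057 (SE, edgeR adjusted p = 0.284) and 0.24 ± 0.11 (SE, edgeR adjusted p = 0.427), both under the unadjusted limit, as were 10.7% of all genes in that fit. Without replicate 1 of the Activity Reduction group Cry2 was at 0.07. Without replicate 2 of the Active group or replicate 4 or 7 of the Activity Reduction group, 1 member, Cry2, passed the unadjusted limit. Nr1d2 had an estimate of -0.0011 with an interval from -0.09 to 0.08. The groups overlapped for all 10 members, and they did not overlap for 0.291% of all genes tested. In the test of any difference among the 3 groups, 0 members passed with or without adjustment (edgeR), beside 0% and 12.6% of all genes. Cry2 came nearest, with an edgeR adjusted p of 0.397, and with the liver division in the model it passed the unadjusted limit, as did 10.8% of all genes. DESeq2 gave the same counts of members at an unadjusted p under 0.05, 0, 1 and 0 in the 3 comparisons, where 7.13%, 4.88% and 8.27% of all genes passed. After adjustment DESeq2 called 0 members in each, beside 0.939%, 1.89% and 1.29% of the genes to which it gave an adjusted p. In Activity Reduction against Inactive mice 3 members, Clock, Cry1 and Per2, had no adjusted p in DESeq2. Over all genes tested the median log2 fold changes were 0.0052, 0.0057 and -0.00065 in the same order. The 3 comparisons share their groups, so their values are not independent of each other.

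**Figure D2:**
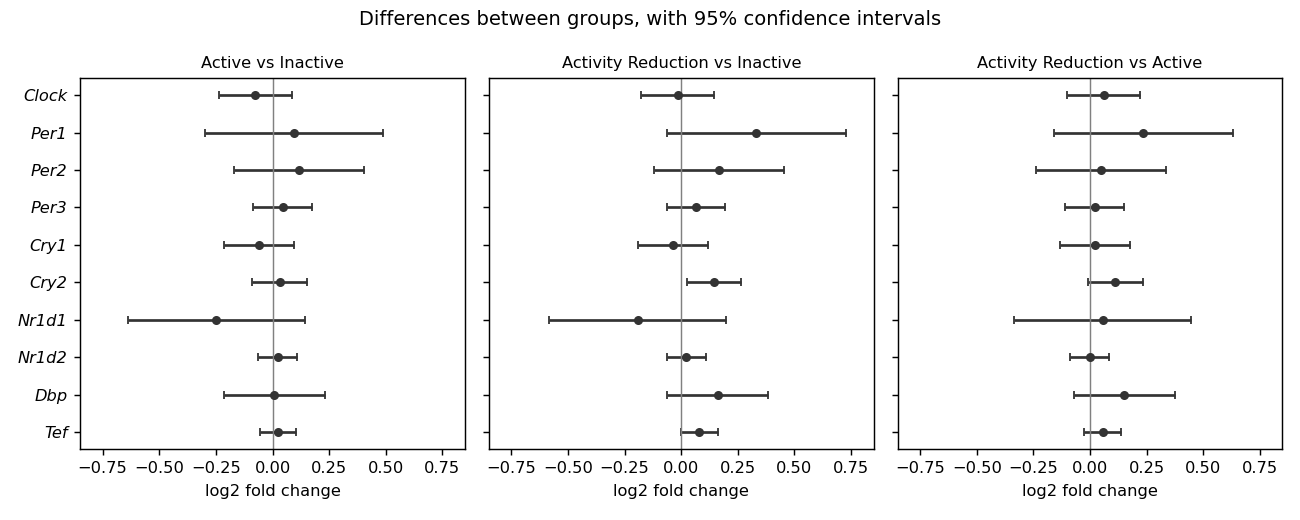
Log2 fold changes (horizontal axes) of the 10 clock transcripts in the 3 comparisons, from the edgeR model of 21 libraries, with 95% confidence intervals as bars. The interval of Cry2 in Activity Reduction against Inactive mice, 0.02 to 0.27, is the one that leaves out 0, before adjustment for the number of genes.

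Between libraries with more and with fewer liver transcripts, with the group in the model, 3 of the 10 members had an unadjusted p under 0.05 and 0 an adjusted p under 0.05 (edgeR), beside 12.6% and 4.58% of all genes. The 3 were Cry2, 0.12 ± 0.051 (SE) higher in the libraries with more (edgeR adjusted p = 0.273), Dbp, 0.20 ± 0.093 (SE, adjusted p = 0.387), and Per3, 0.12 ± 0.055 (SE, adjusted p = 0.39). Per1, Per2, Nr1d1, Nr1d2, Clock, Cry1 and Tef had estimates from 0.002 to 0.09 on the log2 scale, all with an unadjusted p over 0.05. Of 20 other clock genes tested, 4 had an unadjusted p under 0.05, 2 higher and 2 lower, and 0 passed adjustment (edgeR). Arntl, which encodes BMAL1, was 0.38 ± 0.16 (SE) lower in the libraries with more liver transcripts (log2 fold change -0.38, edgeR adjusted p = 0.271). Hlf, the third factor that binds the D-box, was 0.20 ± 0.073 (SE) higher there (edgeR adjusted p = 0.178). The part of this division in the differences between groups was not tested beyond the values given with them.

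Some members varied together between mice of the same group. How often pairs of other genes pass the same test was not examined, so the count of pairs has no background beside it. Genes outside the members also reached high coefficients with single members, as listed further on. After removal of the group means, 10 of the 45 pairs of members were correlated over the 21 mice (Pearson r, two-sided test of 100000 permutations of mice within groups, Benjamini-Hochberg adjusted p under 0.05), 5 positively and 5 negatively. All 10 had the same sign in each of the 3 groups, which was the case for 19 of the 45 pairs. By Spearman's rho 5 pairs passed, and these 5 were among the 10. By sign, these pairs set Per1, Per2, Per3 and Tef on one side and Clock and Nr1d1 on the other. Not every pair among these genes passed. Per3 passed with Per1 and Per2 only, and Tef with Per2 and Clock only. Cry1, Cry2, Nr1d2 and Dbp were in none of the 10 pairs.

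Per1 and Per2 were correlated most closely (r = 0.94, permutation p = 2e-05, adjusted p = 0.0009, rho = 0.88, permutation p = 3e-05). Within groups r was 0.96 in Inactive, 0.84 in Active and 0.98 in Activity Reduction mice. Replicate 2 of the Inactive group (1778 for Per1, 653 for Per2) and replicate 3 of the Activity Reduction group (2935 and 846) were the lowest of their groups for both genes, and without these 2 mice r was 0.86. The relation between the PER transcripts was therefore present in the other 19 mice too.

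Nr1d1 ran opposite to both PER genes. With Per2 r was -0.82 (permutation p = 6e-05, adjusted p = 0.00135, rho = -0.78, permutation p = 0.00017) and with Per1 it was -0.77 (permutation p = 0.00126, adjusted p = 0.0113, rho = -0.75, permutation p = 0.00036). Replicate 2 of the Inactive group and replicate 3 of the Activity Reduction group, lowest in Per1 and Per2, had the highest Nr1d1 of their groups, 5864 and 5637. Replicate 7 of the Inactive group, highest in both PER genes, had the lowest Nr1d1, 2069. Without the 2 mice farthest from the median in the PER gene, r was -0.78 for Per2 and -0.73 for Per1. Thra, whose exons overlap Nr1d1 on the opposite strand, followed Nr1d1 across the mice (r = 0.81, permutation p = 9e-05, rho = 0.70, permutation p = 0.00118), and the part of shared reads in these correlations was not tested. Sphk2 and Dbp, the other overlapping pair examined, were negatively correlated (r = -0.72, permutation p = 0.00071, rho = -0.76, permutation p = 0.00021).

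Clock varied with Nr1d1 and against Per1, Per2 and Tef. The coefficient r was 0.71 with Nr1d1 (permutation p = 0.00018, adjusted p = 0.0027, rho = 0.69), -0.67 with Tef (permutation p = 0.00065, adjusted p = 0.00731, rho = -0.70), -0.65 with Per2 and -0.62 with Per1 (permutation p = 0.002 and 0.00188, adjusted p = 0.0129 for both). The rho of Per2 and Per1 with Clock, -0.52 and -0.53, had adjusted permutation p values of 0.108. The range of Clock was narrow, and the 2 mice farthest from its median were replicate 7 of the Inactive group (1038) and replicate 5 of the Active group (933). Without these mice the 4 coefficients were 0.57, -0.60, -0.46 and -0.49, with adjusted permutation p values from 0.0638 to 0.254. The signs stayed and the calls did not, but leaving out the extremes of Clock also narrows its range and lowers the number of mice. In the Activity Reduction group, which held neither mouse, the coefficients were 0.41, -0.71, -0.37 and -0.38.

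Per3 and Tef followed the other PER genes less closely. Per2 had an r of 0.65 with Per3 (permutation p = 0.0032, adjusted p = 0.0180) and 0.67 with Tef (permutation p = 0.00396, adjusted p = 0.0198), and Per1 had 0.57 with Per3 (permutation p = 0.0101, adjusted p = 0.0454). By rho these were 0.52, 0.53 and 0.44, with adjusted permutation p values of 0.108, 0.108 and 0.218. Without replicate 2 of the Inactive group and replicate 3 of the Activity Reduction group they fell to 0.38, 0.33 and 0.19. None of the 3 passed adjustment without those mice. In the Active group, which held neither of them, r was 0.85, 0.81 and 0.76. In the exact test within that group the adjusted p values were 0.269, 0.269 and 0.397. Replicate 5 was the highest Active mouse in Per1, Per2, Per3 and Tef. The Active coefficients therefore cannot tell a relation across mice from the weight of this mouse.

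**Figure D3:**
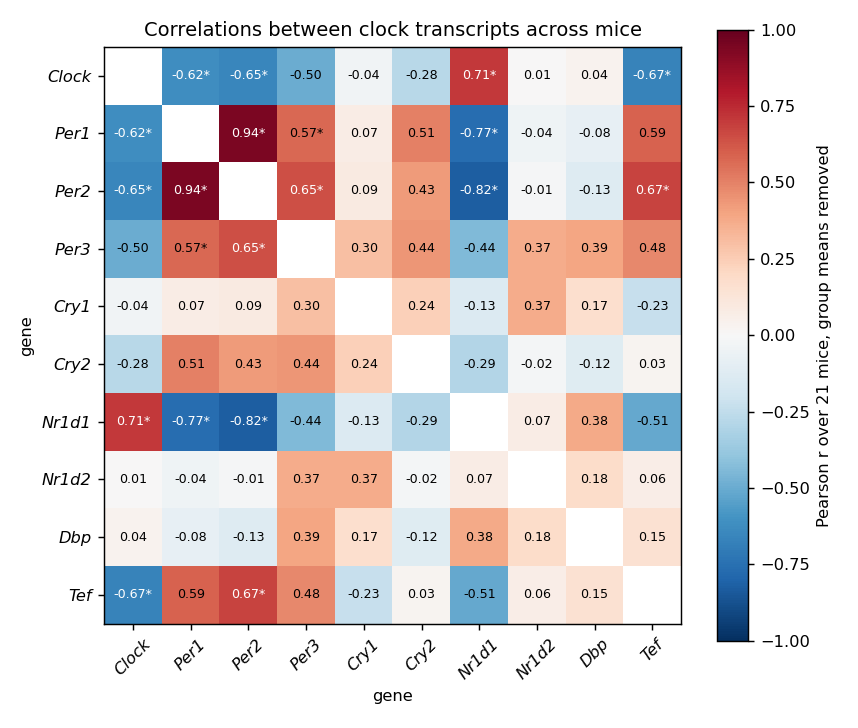
Pearson r between each pair of the 10 clock transcripts over 21 mice, on log2 normalized counts with group means removed. Asterisks mark the 10 pairs with an adjusted permutation p under 0.05. Per1, Per2, Per3 and Tef are positive with each other and negative with Clock and Nr1d1, and the rows of Cry1, Cry2, Nr1d2 and Dbp hold no asterisk.

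**Figure D4:**
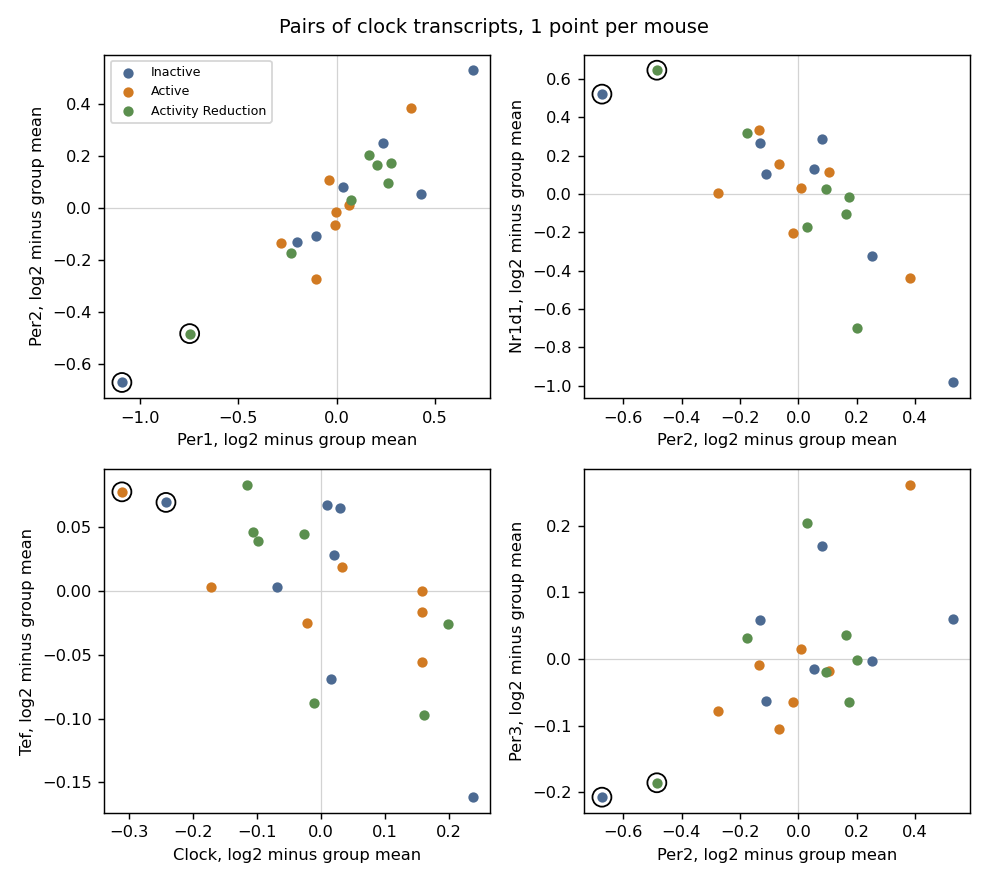
Deviations from the group mean, in log2 normalized counts on both axes, for Per1 and Per2, Per2 and Nr1d1, Clock and Tef, and Per2 and Per3, 1 point per mouse and coloured by group. Rings mark the 2 mice farthest from the median of the gene on the horizontal axis. Without the ringed mice r is 0.86, -0.78, -0.60 and 0.38.

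The single mice showed the same divide. Replicate 2 of the Inactive group deviated from its group mean by -1.09 for Per1, -0.67 for Per2, 0.24 for Clock and 0.52 for Nr1d1 on the log2 scale. Replicate 3 of the Activity Reduction group deviated by -0.75, -0.48, 0.16 and 0.65. Replicate 7 of the Inactive group went the other way, with 0.69, 0.53, -0.24 and -0.98, and so did replicate 5 of the Active group with 0.38, 0.38, -0.31 and -0.44. Of these 4 mice, replicate 5 of the Active group was the one whose library held more liver transcripts. With centring within the liver division as well as the group, 11 pairs passed. Of the correlations within single groups, 135 in all, 1 passed adjustment in an exact test over 5040 pairings, that of Clock with Nr1d1 in the Inactive group (r = 0.93, exact p = 0.0001984, the smallest that this test can give, adjusted p = 0.0268).

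**Figure D5:**
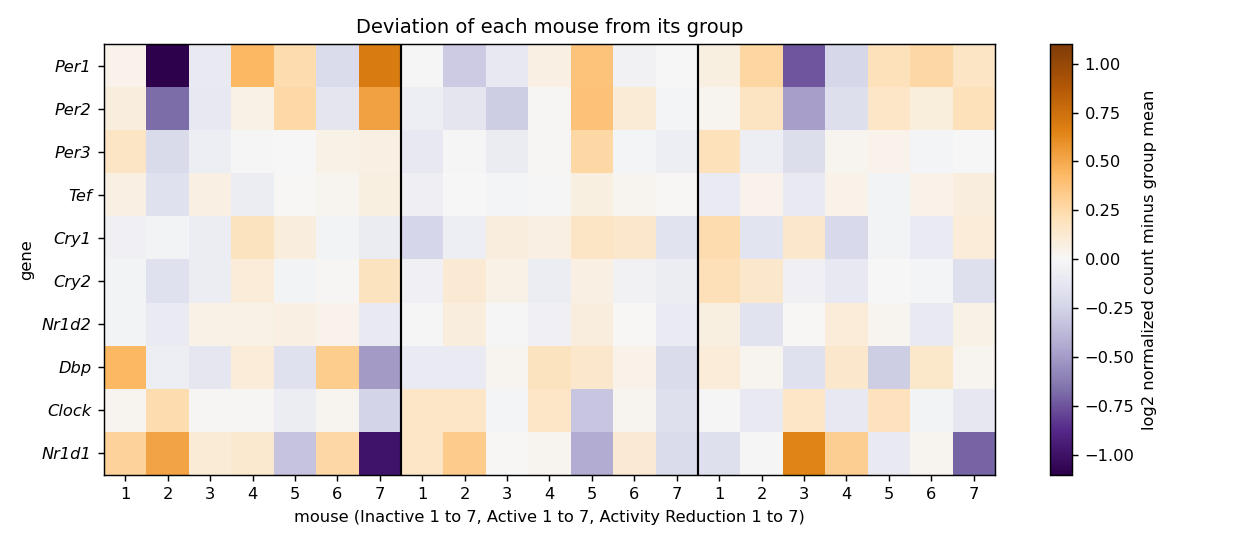
Deviation of each of the 21 mice (columns, by group and replicate) from its group mean, in log2 normalized counts, for the 10 clock transcripts (rows). Replicate 2 of the Inactive and replicate 3 of the Activity Reduction group are low in Per1 and Per2 and high in Nr1d1, and replicate 7 of the Inactive group is the reverse.

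Transcripts outside the 10 that most resembled them were ranked by Pearson r on group-centred log2 CPM over the 21 mice, among 16128 genes, as a description. Closest to Per2 after Per1 (0.94) stood Usp2 (0.92), a ubiquitin protease gene that is itself a clock output, then Kcna5 (0.88), a potassium channel gene, Shroom4 (0.86) and Mid1ip1 (0.86). The lowest were Afdn (-0.83), Nr1d1 (-0.82), Cldn5 (-0.81), Map3k1 (-0.80) and Kcnj2 (-0.78). Closest to Clock were Asb12 (0.87), Eif4e2 (0.81), Rps6ka3 (0.80), Prkca (0.80) and the chaperone gene Hspa8 (0.78), and the lowest were Wee1 (-0.79), a cell cycle kinase gene, Gm26800 (-0.78), Arrdc3 (-0.78), Slc25a30 (-0.76) and Sh2d3c (-0.75). Dbp had no member near it. Its closest were Fbxo4 (0.81), Armc6 (0.78), Pip4p1 (0.78), Foxp3 (0.75) and Macroh2a1 (0.75), and its lowest were Sesn1 (-0.82), Ncoa2 (-0.81), Gpm6b (-0.79), Ube4a (-0.78) and Chn1 (-0.77).

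Of 21 other genes of the clock, 20 had enough counts to be tested, and 0 of them passed adjustment in any comparison in edgeR. In Active against Inactive mice 3 had an unadjusted p under 0.05, Fbxl21 with a log2 fold change of 1.02 from a median of 7.01 to 12.7 normalized counts, Fbxw11 with -0.13 and Rora with -0.18. In Activity Reduction against Inactive mice there were 2, Arntl with -0.38 and Csnk1d, a kinase gene that acts on PER proteins, with 0.12. In Activity Reduction against Active mice there were 2, Rora with 0.24 and Timeless with -0.27. All genes tested passed the unadjusted limit in 10.9%, 7.73% and 13.3% of cases, in the same order of comparisons. With the liver division in the model, Fbxl21 was at 0.45 (edgeR adjusted p = 0.827), Fbxw11 at -0.10 and, in Activity Reduction against Active mice, Timeless at -0.27, none of them under the unadjusted limit.

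Rora encodes an activator of the gene for BMAL1 and competes with the NR1D receptors for the same element. It ranged from 5726 to 6797 in the Inactive group (median 6333), from 5302 to 6034 in the Active group (5428) and from 5645 to 7233 in the Activity Reduction group (6699). Most Active mice lay below the other groups, with overlap. The edgeR adjusted p was 0.224 for Active against Inactive and 0.0750 for Activity Reduction against Active mice, which share the Active libraries. With DESeq2 these adjusted p values were 0.0481 and 0.00298, where DESeq2 called 111 and 188 genes in all, and over the alternatives of each comparison they ran from 0.0481 to 0.812 and from 0.00298 to 0.981. With the liver division in the model the differences of Rora were -0.13 and 0.21 (edgeR adjusted p = 0.503 and adjusted p = 0.145). In the Activity Reduction group Rora was 0.07 ± 0.048 (SE) above the Inactive group on the log2 scale (edgeR adjusted p = 0.815).

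Arntl, the gene for BMAL1, ranged from 273 to 627 in the Inactive group (median 409), from 321.9 to 489.7 in the Active group (406) and from 235 to 549.9 in the Activity Reduction group (292). Its difference in Activity Reduction against Inactive mice was -0.38 ± 0.17 (SE, edgeR adjusted p = 0.637), with overlap of the groups. The D-box factor gene Hlf was between -0.05 and -0.03 in the 3 comparisons, each with an adjusted p over 0.9 in edgeR. Nfil3, whose protein opposes Dbp at the D-box, had estimates of -0.18, -0.02 and 0.16 with standard errors of 0.20. Ciart and Bhlhe41, both repressors of the loop, were 0.32 ± 0.17 (SE) and 0.16 ± 0.11 (SE) in Activity Reduction against Inactive mice, with edgeR adjusted p values of 0.692 and 0.809. Npas2, which can stand in for Clock, was near the limit of detection, with medians of 7.49, 10.3 and 6.32 normalized counts in Inactive, Active and Activity Reduction mice.

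Across mice, these 6 genes gave 60 correlations with the members, which were added after the data had been seen, and 5 had an adjusted permutation p under 0.05. Arntl varied against Per3 (r = -0.79, permutation p = 4e-05, adjusted p = 0.0024, rho = -0.73) and kept an r of -0.81 without the 2 mice farthest in Per3. Hlf followed Per3 (r = 0.73, rho = 0.66), Ciart followed Per1 (r = 0.75, rho = 0.71), Bhlhe41 followed Dbp (r = 0.73, rho = 0.66), and Nfil3 varied against Nr1d1 (r = -0.78, rho = -0.74), with adjusted permutation p values from 0.0072 to 0.00852. Without the 2 mice farthest from the median of the member these 4 were 0.60, 0.54, 0.68 and -0.63. For the coefficients without 2 mice in this paragraph, the group means removed still included the left-out mice. Elsewhere the means were taken again without them. Clock and Arntl, the genes of the activator pair, had an r of 0.54 with an adjusted permutation p of 0.0604.

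Other inputs that can move clock genes were counted beside them. Of 12 genes induced by glucocorticoids, Per1 included, 0 passed adjustment in edgeR, and Klf9 was the one with an unadjusted p under 0.05, 0.18 ± 0.067 (SE) higher in Activity Reduction than in Inactive mice (edgeR adjusted p = 0.495) and 0.16 ± 0.067 (SE) higher than in Active mice (adjusted p = 0.322). The medians of the 12 log2 fold changes were -0.002, 0.18 and 0.145 in Active against Inactive, Activity Reduction against Inactive and Activity Reduction against Active mice. Shares of all genes under the unadjusted limit in edgeR were 10.9%, 7.73% and 13.3% in these comparisons. Of 8 genes induced by fasting, 0 had an unadjusted p under 0.05 in the 3 comparisons in edgeR or DESeq2. Of 7 genes that respond to temperature, Rbm3, a cold-induced gene, was 0.53 ± 0.12 (SE) higher in Active than in Inactive mice (edgeR adjusted p = 0.159, DESeq2 adjusted p = 0.0103) and 0.30 ± 0.12 (SE) higher in Activity Reduction than in Inactive mice (adjusted p = 0.546). Hsph1, a heat-shock gene, was -0.21 ± 0.069 (SE) in Active against Inactive and 0.18 ± 0.069 (SE) in Activity Reduction against Active mice, with adjusted p values of 0.292 and 0.271 in edgeR. With the liver division in the model, Rbm3 was at 0.59 in Active against Inactive mice, and Hsph1 at -0.30 there and 0.24 in Activity Reduction against Active mice, with edgeR adjusted p values of 0.291, 0.331 and 0.189.

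Between libraries with more and with fewer liver transcripts, 4 of the 12 glucocorticoid-induced genes had an unadjusted p under 0.05, all lower in the libraries with more, and 0 passed adjustment (edgeR). Of the 7 genes that respond to temperature, 1 had an unadjusted p under 0.05, higher in the libraries with more, and 0 passed adjustment (edgeR). The shares of all genes in that comparison were 12.6% and 4.58%. Across mice, the 26 genes of the 3 lists other than Per1 gave 260 correlations with the members, added after the data had been seen, and 2 had an adjusted permutation p under 0.05. Tsc22d3, a glucocorticoid-induced gene, varied against Nr1d1 (r = -0.78, permutation p = 2e-05, adjusted p = 0.0052, rho = -0.79, permutation p = 4e-05), with -0.79 without the 2 mice farthest in Nr1d1. The chaperone gene Hspa8 followed Clock (r = 0.79, permutation p = 6e-05, adjusted p = 0.0078, rho = 0.76, permutation p = 0.00014), with 0.85 without the 2 mice farthest in Clock. By rho, 3 passed, those 2 and Fbxo32, a muscle ubiquitin ligase gene, against Dbp (rho = -0.79, adjusted permutation p = 0.0104, r = -0.59). Of the 11 glucocorticoid-induced genes other than Per1, 10 had a positive r with each of Per1, Per2 and Tef (medians 0.51, 0.47 and 0.23). As many had a negative r with each of Nr1d1, Dbp and Clock (medians -0.55, -0.49 and -0.30). Positive r values were held by 9, 8, 7 and 4 with Per3, Cry1, Cry2 and Nr1d2. The part of these genes in the differences between mice was not tested.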

How the data were processed

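Poly(A) RNA of the gastrocnemius (medial belly) was sequenced as paired ends. The authors trimmed with fastp, aligned to GRCm39 with STAR and deposited featureCounts counts per gene, without normalization. The strand setting is not given in the sources used here. The other deposited table, labelled as normalized, repeated these 857913 values and was not used. Groups followed the labels. Normalized counts were counts divided by median-of-ratios size factors (0.752 to 1.22). Differential expression was tested in 1 edgeR 4.0.16 quasi-likelihood model of 21 libraries (TMM, filterByExpr, Benjamini-Hochberg over 16129 genes, threshold 0.05, R 4.3.3), checked on simulated data. DESeq2, which the authors also used, was an alternative, run here in version 1.42.0. P-values measure the spread between mice, 1 library each. Correlations used log2(normalized count + 1) with group means removed. Libraries were divided at the largest gap in summed liver transcripts. The members and lists were chosen with earlier results of these data known. Text names all members, 6 further clock genes, and genes of the other lists with an unadjusted p under 0.05. Gene positions are from GENCODE vM39. The comparison of fasting-induced genes between the divided libraries is not reported here.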

Additional observations from a re-analysis of the deposited data

Results flagged for a closer look

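Per3 in the Active group stood out for 1 mouse. Replicate 5 had 4183 normalized counts, and the next highest of the 7 Active mice had 3526, a gap of 0.701 of the range of the group, which is past Dixon's 95% limit for 7 values. Of the 30 groups of values examined (10 genes in 3 groups), 1 was past this limit, and chance passes it in about 1 group of 20. The same mouse had the highest Per1 (5514) and Per2 (1492) and the lowest Clock (933) and Nr1d1 (2618) of the Active group, and its library was among those with more liver transcripts (1836 CPM). Without it, Per3 differed by -0.01 on the log2 scale between Active and Inactive mice, where the estimate with all mice was 0.04.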

How the results depend on the processing

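No member reached an adjusted p under 0.05 in any of the 837 fits of 1 member in 1 comparison under an alternative that gave one (3 more, by DESeq2, gave none; edgeR, or DESeq2 where named, smallest adjusted p 0.284). Counts at an unadjusted p under 0.05 moved within a few genes. In Activity Reduction against Inactive mice the 1 member, Cry2, became 0 within the libraries with fewer liver transcripts (7.89% of all genes), and 0 to 3 when single mice were left out. In Activity Reduction against Active mice 0 became 2, and in the test of any difference 0 became 1, with the liver division in the model (10.7% and 10.8% of all genes), and each was 0 to 1 with single mice left out, as was Active against Inactive. The 10 correlated pairs became 3 without the 2 farthest mice, 5 with Spearman's rho (an alternative chosen after seeing the data), and 5 to 11 with single mice left out, the 5 being reached without replicate 2 of the Inactive or replicate 5 of the Active group. The cause was not tested.

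Estimates that changed sign were all at most 0.0956 on the log2 scale at first. With the liver division in the model, Active against Inactive became -0.021 for Per3, -0.040 for Cry2 and -0.097 for Dbp. Within the libraries with fewer liver transcripts it became -0.035 for Cry2 and -0.030 for Nr1d2, while Clock in Activity Reduction against Inactive became 0.0053, and Per2 and Nr1d2 in Activity Reduction against Active became -0.021 and 0.057. The last was 0.0013 with DESeq2 and 0.0011 with RLE factors. With single mice left out, Active against Inactive ran from -0.035 to 0.23 for Per1, -0.0068 to 0.075 for Per3, -0.066 to 0.089 for Dbp and -0.0035 to 0.036 for Tef. Activity Reduction against Inactive ran from -0.061 to 0.019 for Clock and -0.00034 to 0.046 for Nr1d2. Activity Reduction against Active ran from -0.022 to 0.064 for Per3, -0.026 to 0.053 for Cry1, -0.076 to 0.15 for Nr1d1 and -0.021 to 0.023 for Nr1d2.

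The replicate number as a block left the counts of members at 0, 1 and 0 in the 3 comparisons. Samples that share a number correlated between -0.222 and 0.471 (median 0.012, 7 of 21 pairs over 0.1), so the numbers do not pair the mice. Each member had 447 or more counts in every library.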
